A study of Mus musculus with 6 samples.

Results

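The 10 genes described here encode cell surface receptors of the tumor necrosis factor (TNF) receptor superfamily and the proteins that carry their signals inside the cell. They were chosen by name from the 56092 gene symbols of the count table, as death receptors and NF-kB-activating receptors with their adaptors: the receptors Fas, Tnfrsf1a, Cd40, Tnfrsf1b, Tnfrsf9 and Ltbr, the adaptors Fadd, Tradd and Traf1, and the initiator caspase Casp8. All 10 were found and all 10 passed the filter on low counts. Messenger RNA was sequenced from RAW264.7 cells, a mouse macrophage line, in 3 shNC and 3 shTrem2 libraries, to ask how silencing of Trem2 changes the transcriptome of macrophages that meet tubular cell debris. The shNC cells carry a control vector that the labels call empty and for which the study's methods give a hairpin, and the shTrem2 cells carry a hairpin against Trem2, a lipid-sensing receptor of myeloid cells. Both were made by lentiviral transduction with a GFP-carrying vector and puromycin selection and are stable lines, so each group is 1 selected cell population. The methods list a pair of Trem2 hairpins and the labels do not say which was sequenced. All cells, controls included, were polarized with 20 ng/mL IL-4 over 24 hours and then kept for 24 hours with freeze-thawed fragments of TCMK-1 cells, a mouse kidney tubular epithelial line. Nothing in the labels says whether the 3 libraries of a group came from separate cultures, and p-values then measure only the spread between these libraries, which may be technical.

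Receptors of this superfamily bind trimeric ligands of the TNF family. Fas and Tnfrsf1a (TNF receptor 1) hold a cytoplasmic death domain, through which Fas recruits Fadd and Casp8 to start apoptosis and through which Tnfrsf1a recruits Tradd to start either NF-kB signalling or cell death. Cd40, Tnfrsf1b (TNF receptor 2), Tnfrsf9 (4-1BB) and Ltbr (lymphotoxin beta receptor) have no death domain and bind TRAF proteins, which lead to classical or alternative NF-kB activation, and in macrophages Cd40 is known as the receptor for help from T cells. The domain annotation deposited with the counts placed the cysteine-rich receptor domain in all 6 receptors, the death domain in Fas, Tnfrsf1a, Fadd and Tradd, and the death effector domain in Fadd and Casp8.

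Promoter sequences are shown for Fas, Tnfrsf9 and Traf1, which fell, and for Ltbr, which rose, as the DNA just before an annotated start. Which starts these cells use was not measured. The windows of Tnfrsf1a and Fadd reach into annotated exons and are not shown. RefSeq start sites (build GRCm38.p6) matched 8 of the 10 genes with 9 promoters, and each window is the 250 bases before the start, on the strand of the gene, written 5′ to 3′. Capitals mark a match to the AP-1 motif TGANTCA, and a window without capitals holds no match to any of the 3 motifs searched on both strands (NF-kB, AP-1 and the interferon-sensitive element). Fas lies on chr19:34290409-34290658 (+), Tnfrsf9 at its upstream start on chr4:150919905-150920154 (+), Traf1 on chr2:34961773-34962022 (-) and Ltbr on chr6:125313886-125314135 (-).
Fas: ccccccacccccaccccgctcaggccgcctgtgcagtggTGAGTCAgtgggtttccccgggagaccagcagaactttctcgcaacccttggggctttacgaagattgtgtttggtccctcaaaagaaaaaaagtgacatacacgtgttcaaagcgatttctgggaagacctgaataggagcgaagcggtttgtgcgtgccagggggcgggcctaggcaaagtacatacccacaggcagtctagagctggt
Tnfrsf9: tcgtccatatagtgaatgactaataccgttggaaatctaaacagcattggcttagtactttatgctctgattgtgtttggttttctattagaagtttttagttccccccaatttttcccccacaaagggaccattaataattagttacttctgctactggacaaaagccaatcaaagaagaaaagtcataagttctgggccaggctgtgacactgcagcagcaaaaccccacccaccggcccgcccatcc
Traf1: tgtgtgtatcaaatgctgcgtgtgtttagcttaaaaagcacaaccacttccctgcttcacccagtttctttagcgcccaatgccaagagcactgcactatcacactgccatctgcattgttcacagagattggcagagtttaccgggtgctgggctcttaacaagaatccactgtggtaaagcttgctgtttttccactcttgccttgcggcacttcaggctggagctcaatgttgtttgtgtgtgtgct
Ltbr: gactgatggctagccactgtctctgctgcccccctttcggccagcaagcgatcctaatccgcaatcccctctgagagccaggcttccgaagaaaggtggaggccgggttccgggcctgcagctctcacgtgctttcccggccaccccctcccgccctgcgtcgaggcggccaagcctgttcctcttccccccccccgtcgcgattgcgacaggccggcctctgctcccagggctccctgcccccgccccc
In Fas, the AP-1 match TGAGTCA lies 211 to 205 bases before the start. A second start of Tnfrsf9, whose window (chr4:150927749-150927998) reaches 81 bases into an annotated exon, holds overlapping NF-kB matches 43 to 33 bases before the start (the first reads GGGGATTTCC) and an AP-1 match TGAGTCA at 15 to 9 bases. Tnfrsf1b holds a match to the interferon-sensitive element in the last 10 bases of its window, and the windows of Tnfrsf1a, Fadd and Casp8 hold no match. Of 32851 promoter windows of this length, 3.9% hold the NF-kB motif, 6.75% the AP-1 motif and 2.98% the interferon-sensitive element, so such matches are a description of these letters and not of a bound factor.

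Depth was 15876119 to 18088388 named counts in the shNC libraries and higher, 19358125 to 19655165, in the shTrem2 libraries. Trem2 itself was at 114, 122 and 144 CPM (counts scaled to library size with TMM factors) in shNC and at 64.7, 63.2 and 80.2 in shTrem2. The log2 fold change was -0.87 (SE 0.09, adjusted p = 3.39e-06 by the edgeR quasi-likelihood test), and it was -2.07 with an offset for effective transcript length. The transcript row that held 53.6% of the Trem2 count in shNC held 22.1% in shTrem2, while another row was higher in shTrem2, at 22.6% of the count in shNC and 69.2% in shTrem2. Of 10 macrophage markers, 9 had more than 3 counts in every library, with a summed level of 5250 to 6184 CPM in shNC and 10357 to 11528 CPM in shTrem2. Of the 9, 7 passed the edgeR test as higher, with Lyz2 at a log2 fold change of 1.39, and 2 as lower, Itgam (-0.78) and Adgre1 (-0.56). Among all tested genes, 28.8% passed as higher and 28.6% as lower. The smallest of these rises was that of Cd68 (log2 fold change 0.12, edgeR adjusted p = 0.0489), whose groups overlapped. Lyz2 went from a mean of 2805 to 7365 CPM, which made most of the rise in the sum. The median log2 fold change of the 9 was 0.47. The labels call these cells Arg1+, yet Arg1 had 1 to 3 counts in each library and the IL-4 markers Chil3, Retnla and Ccl24 had 0, against a floor of 3 counts. Of the 8 IL-4 markers, 3 were tested: Clec10a, at 163 to 323 counts, was lower in shTrem2 (log2 fold change -0.78), and Mrc1 (2.76) and Mgl2 (1.43) were higher, from 5 to 14 and 7 to 11 counts in shNC. Of 14 tubular epithelial markers, 8 had 0 counts throughout, among them Epcam, Cdh1, Krt8 and Krt18, and the summed level was 0.666 to 1.24 CPM in shNC and 2.27 to 2.93 CPM in shTrem2. Aqp1 was the only tubular marker that could be tested and rose from 0.451 to 2.20 CPM. The higher sum in shTrem2 came from Aqp1. Lrp2 went from 0.363 to 0.139 CPM and Cubn from 0.0574 to 0.139 CPM, both at 8 counts or fewer. Markers of T, B and NK cells reached at most 8 counts, and among neutrophil and dendritic markers Zbtb46 alone was tested (8.06 CPM in shNC and 4.48 in shTrem2). The part of these marker levels in the results below was not tested.

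Of the 10 genes, 4 were higher and 4 lower in shTrem2 at an adjusted p under 0.05, which is called here passing the test. Among all 13528 tested genes, 28.8% passed as higher and 28.6% as lower. With a fold change over 1.5 as well, the study's criterion for a differentially expressed gene (DEG), 2 were higher (Tnfrsf1a and Fadd) and 4 lower (Fas, Cd40, Tnfrsf9 and Traf1), against 9.46% and 12.4% of all genes. The values of the 2 groups did not overlap for 8 of the 10 genes, and they did not overlap for 63.8% of all tested genes. These counts are descriptions, without a test of their own. In bulk RNA, fewer cells that express a gene and less RNA of that gene per cell cannot be told apart.

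**Figure D1:**
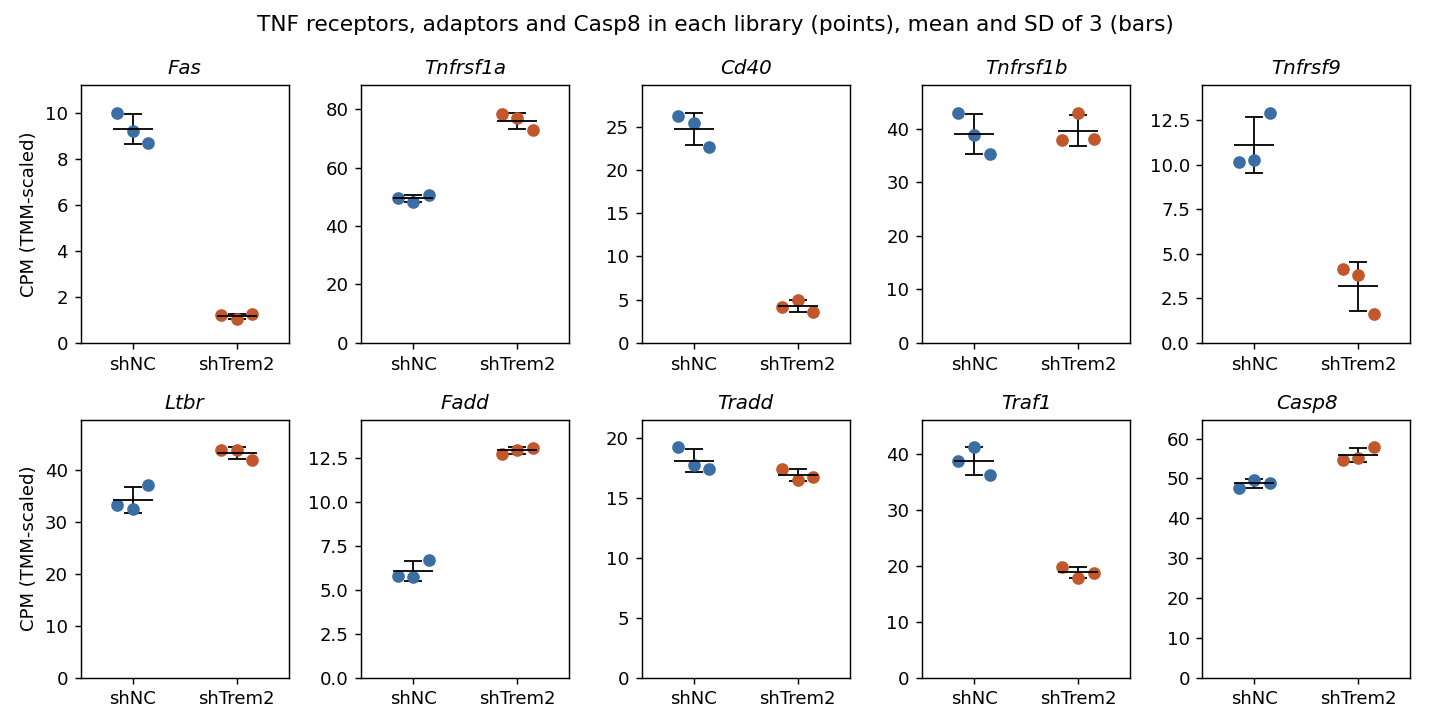
Each panel shows 1 gene in CPM (TMM-scaled, axis from 0), with a point for each library of shNC (blue) and shTrem2 (orange) and bars for the mean and SD of 3 libraries. Fas, Cd40, Tnfrsf9 and Traf1 lie lower in all shTrem2 libraries, Tnfrsf1a, Ltbr, Fadd and Casp8 lie higher, and Tnfrsf1b and Tradd overlap.

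The pair of death receptors moved in opposite directions. Fas, the receptor for Fas ligand, was at 10.003, 9.21 and 8.69 CPM in shNC and at 1.20, 1.04 and 1.24 CPM in shTrem2. The highest shTrem2 library stood far below the lowest shNC library, at 20 to 24 counts against 158 to 166. Fas fell 7.97-fold (log2 fold change -2.99, SE 0.18, adjusted p = 1.53e-08), which was rank 52 among all falls. Its gene spans chr19:34290666-34327772 (GRCm38, plus strand). A transcript row that held 98.8% of the Fas count in shNC held 100% of it in shTrem2.

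Tnfrsf1a, the receptor through which soluble TNF signals in most cells, was at 49.6, 48.2 and 50.6 CPM in shNC and at 78.1, 77.0 and 72.8 CPM in shTrem2. The spread within each group was small beside the gap between them. It rose 1.54-fold (log2 fold change 0.62, SE 0.06, adjusted p = 6.12e-07), just past the fold threshold of the DEG criterion, and its fold was under that threshold with library size only and in both fits on FPKM. The gene lies on chr6:125349362-125362484 (GRCm38), and its neighbour Ltbr, on the opposite strand, lies 35476 bases away, with only Scnn1a, at 6 to 20 counts per library, annotated between them. Tnfrsf1a and Ltbr both rose. Per transcript length (FPKM), Tnfrsf1a stood at 3.42 ± 0.23 times the Fas level in shNC (SD, n = 3) and at 42.2 ± 4.28 times it in shTrem2.

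Among receptors without a death domain, Cd40 showed the largest change. Cd40, which on macrophages receives the signal of Cd40 ligand on T cells, was at 26.2, 25.4 and 22.7 CPM in shNC and at 4.17, 4.96 and 3.55 CPM in shTrem2. The groups were far apart, and the gene (chr2:165055627-165072948, GRCm38) fell 5.84-fold (log2 fold change -2.55, SE 0.13, adjusted p = 2.64e-09), rank 81 among all falls. Its count was spread over several transcript rows, of which the largest held 48.3% in shNC and 56.7% in shTrem2.

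Tnfrsf9, known as a costimulatory receptor on T cells that activated myeloid cells also express, was at 10.1, 10.3 and 12.9 CPM in shNC and at 4.12, 3.81 and 1.60 CPM in shTrem2. The third shTrem2 library was the lowest and gave this gene the widest relative spread of the 10. It fell 3.50-fold (log2 fold change -1.81, SE 0.24, adjusted p = 2.75e-05). Of its transcript rows by size, the fourth, at 15.6, 9.70 and 27.3 counts in shNC, had 0 counts in every shTrem2 library. Tnfrsf9 (chr4:150914562-150946102, GRCm38) overlaps Camta1 on the opposite strand, which had 14.4 to 15.8 CPM by library size in shNC, against 9.62 to 11.4 in shTrem2, and although the kit was stranded and the alignment orientation-aware, the strand setting of the counting is not stated, so reads of the overlap may not have been told apart.

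Ltbr, the receptor for lymphotoxin and for Tnfsf14 that leads to alternative NF-kB activation, was at 33.2, 32.5 and 37.1 CPM in shNC and at 43.9, 43.9 and 41.9 CPM in shTrem2. All shTrem2 libraries were above all shNC libraries, by a small margin. The rise was 1.26-fold (log2 fold change 0.34, SE 0.07, adjusted p = 0.000758) and did not reach the DEG criterion. Tnfrsf1b, the TNF receptor enriched on immune cells, was at 43.0, 38.8 and 35.4 CPM in shNC and at 37.9, 43.0 and 38.2 CPM in shTrem2. The groups overlapped, and the log2 fold change of 0.03 (SE 0.08, adjusted p = 0.801) was within the spread and changed sign with the library left out and with the unit. Per length, the ratio of Tnfrsf1a to Tnfrsf1b was 2.32 ± 0.07 in shNC and 3.64 ± 0.41 in shTrem2 (SD, n = 3).

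Inside the cell, the adaptors Fadd and Traf1 changed in opposite directions. Fadd, which links death receptors to Casp8, was at 5.78, 5.71 and 6.71 CPM in shNC and at 12.7, 13.0 and 13.1 CPM in shTrem2. The shTrem2 libraries were close to each other and all above shNC. Fadd rose 2.13-fold (log2 fold change 1.09, SE 0.12, adjusted p = 3.93e-06). The antisense gene Faddos, which overlaps it on chr7, had 0 to 5 counts in each library, against 93 to 254 counts of Fadd. Traf1, an adaptor that acts with Traf2 and the inhibitors of apoptosis Birc2 and Birc3 and is a known NF-kB target, was at 38.6, 41.1 and 36.2 CPM in shNC and at 19.8, 17.8 and 18.7 CPM in shTrem2. Again the groups were well separated. Traf1 fell 2.05-fold (log2 fold change -1.04, SE 0.08, adjusted p = 8.68e-08).

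Tradd, the adaptor of Tnfrsf1a, was at 19.3, 17.8 and 17.4 CPM in shNC and at 17.5, 16.6 and 16.8 CPM in shTrem2. The lowest shNC value lay within the range of shTrem2, and the log2 fold change of -0.10 (SE 0.09, adjusted p = 0.358) did not pass the test. Casp8, the protease that Fadd recruits and that cleaves the executioner caspases, was at 47.7, 49.7 and 48.8 CPM in shNC and at 54.7, 55.1 and 57.8 CPM in shTrem2. It rose 1.15-fold (log2 fold change 0.20, SE 0.06, adjusted p = 0.00828), without overlap between groups. That call was lost with an offset for effective length (adjusted p = 0.114), in both fits on FPKM and with only the largest of its 4 transcript rows, which held 50.7% of the count in shNC and 48.6% in shTrem2. Gm37760, which overlaps Casp8 on the same strand, had 8 to 30 counts in each library.

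**Figure D2:**
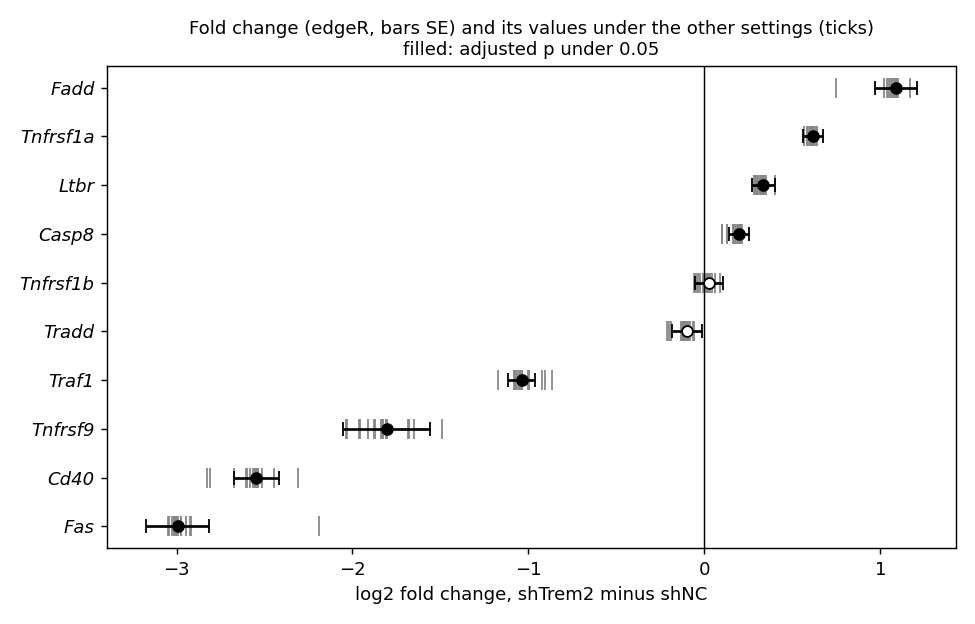
The horizontal axis is the log2 fold change of shTrem2 minus shNC, points are the edgeR estimates with bars for SE, filled where the adjusted p is under 0.05, and grey ticks are the values under the other normalizations, filters, tools, units and left-out libraries. The estimates run from -2.99 for Fas to 1.09 for Fadd, and of the 10 genes Tnfrsf1b alone has ticks on both sides of 0.

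The order of the levels, compared in FPKM, a level scaled for both depth and transcript length, differed between groups. In shNC, Cd40 led with 32.5 ± 4.42 FPKM (SD, n = 3), followed by Casp8 with 27.9 ± 0.48 and Tnfrsf1a with 27.4 ± 0.71, and the ranges of these neighbours overlapped. A middle tier of Ltbr (19.5 ± 1.23), Traf1 (18.1 ± 1.76) and Tradd (15.2 ± 1.46) also overlapped from neighbour to neighbour. Below it stood Tnfrsf1b (11.8 ± 0.63), Tnfrsf9 (10.02 ± 2.01) and Fas (8.05 ± 0.60), again overlapping, and Fadd was lowest by a clear gap at 1.70 ± 0.14 FPKM.

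In shTrem2, Tnfrsf1a led with 41.1 ± 1.00 FPKM (SD, n = 3), Casp8 followed with 29.9 ± 0.48 and Ltbr with 24.0 ± 0.74, each without overlap with the next. Tradd (13.1 ± 0.58) and Tnfrsf1b (11.4 ± 1.29) overlapped, and Traf1 stood apart below them at 9.46 ± 0.16 FPKM. Cd40 was down at 4.60 ± 1.27, overlapping Fadd at 3.53 ± 0.06, which in turn overlapped Tnfrsf9 at 2.53 ± 1.25 FPKM. Fas was last at 0.98 ± 0.09 FPKM, with no overlap.

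The 6 receptors summed to 109 ± 2.50 FPKM in shNC and to 84.6 ± 4.29 FPKM in shTrem2 (SD, n = 3). Of that sum, Cd40 held 29.7% in shNC and 5.39% in shTrem2. Tnfrsf1a went from 25.1% to 48.7% and Ltbr from 17.9% to 28.4%. Fas made up 7.35% in shNC and 1.16% in shTrem2, and Tnfrsf9 9.16% and 2.96%. The share of Tnfrsf1b was 10.8% and 13.5%, although its level was 11.8 and 11.4 FPKM. As the sum fell, a share can rise without a rise in FPKM. These shares describe RNA per length and not receptor protein at the surface.

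**Figure D3:**
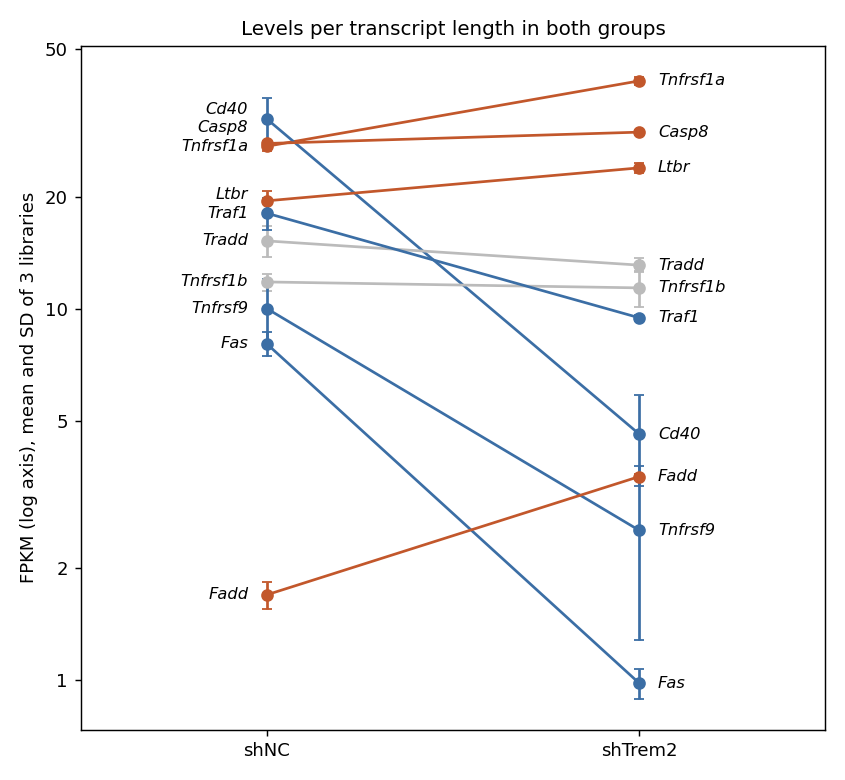
FPKM on a log axis, as mean and SD of 3 libraries, for each gene in shNC and shTrem2, with lines in orange for genes that passed the test as higher, blue for lower and grey for neither. Cd40 goes from the top of the order in shNC (32.5 FPKM) to 4.60 FPKM in shTrem2, while Tnfrsf1a goes from 27.4 to 41.1 FPKM.

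For each DEG among the 10, up to 3 tested genes with the closest profile over the 6 libraries were found by the root mean square (RMS) difference in log2 CPM, centred on the shNC mean. The log2 CPM holds a prior count of 2, which shrinks the changes of genes with few counts. As the libraries form only 2 groups, nearness by this measure mostly means a like change between the groups. Nearest to Fas were Spib, an Ets family transcription factor, with an RMS difference of 0.126, then Gm37795 and Acod1, the enzyme that makes itaconate (0.137 and 0.151). By edgeR, their log2 fold changes were -3.93, -2.86 and -3.02, against -2.99 for Fas. For Cd40 they were Gm45833 and Rapgef3 (0.138 and 0.143), whose log2 fold changes of -3.45 and -3.60 were larger than the -2.55 of Cd40. For Tnfrsf9 they were Dnah8, Catsperg1 and Gm41609 (0.210, 0.234 and 0.237), at -2.03, -2.05 and -2.10 against -1.81. Traf1 was closest to Man1a, Kmt2d and Cdc42ep2 (0.0409, 0.0490 and 0.0491). Nearest to Tnfrsf1a were the cohesin subunit Smc1a (0.0148), S100a10 and the RNA sensor Rigi (0.0354 and 0.0363). Fadd had as nearest the kinetochore protein gene Cenpf (0.0325), Trim30a and Gpx1 (0.0383 and 0.0402).

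Ligands of these receptors were unequally present. Tnf, the ligand of Tnfrsf1a and Tnfrsf1b, was at 337, 329 and 296 CPM in shNC and at 161, 136 and 163 CPM in shTrem2. It fell 2.09-fold (log2 fold change -1.07, SE 0.07, adjusted p = 2.88e-08), while Tnfrsf1a rose. Ltb, a subunit of the ligand of Ltbr, fell from 40.7 ± 2.62 to 17.9 ± 3.03 CPM (SD, n = 3, log2 fold change -1.18, edgeR adjusted p = 4.06e-07), and Tnfsf14, another ligand of Ltbr, rose from 0.483 ± 0.145 to 1.45 ± 0.35 CPM (log2 fold change 1.59, edgeR adjusted p = 0.00254), on 6 to 35 counts.

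Tnfsf9, the ligand of Tnfrsf9, fell from 79.6 ± 5.68 to 66.4 ± 4.66 CPM (SD, n = 3, log2 fold change -0.26, edgeR adjusted p = 0.00446). Fasl and Cd40lg, the ligands of Fas and Cd40, had 0 counts in every shNC library and at most 2 counts in any shTrem2 library, which is under the floor of 3 counts (0.153 to 0.189 CPM, counting error only). Lta had 2 to 15 counts and was not tested. Of 18 ligands listed, 10 were tested, 4 passed as higher and 4 as lower (28.8% and 28.6% of all tested genes), and the median was 0.17 on the log2 scale. The other named ones, all under 3 CPM, were Tnfsf15 (log2 fold change -1.87), Tnfsf10, the death ligand TRAIL (1.55), and Tnfsf8 (1.31), whose call was lost without shNC replicate 1, shTrem2 replicate 1 or shTrem2 replicate 2 (adjusted p from 0.0546 to 0.0838 in edgeR) and in both limma fits on FPKM (0.0551 and 0.0657).

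Among 22 other receptors of the superfamily, 14 were tested, and 7 passed as lower and 2 as higher. That is 64.3% passing, against 57.4% of all tested genes. Their log2 fold changes had a median of -0.53, against 0 over all tested genes. Eda2r, a receptor for ectodysplasin A2, fell from 22.9 ± 2.15 to 5.17 ± 0.99 CPM (SD, n = 3, log2 fold change -2.15, edgeR adjusted p = 2.09e-08). Tnfrsf10b, the mouse TRAIL receptor with a death domain, fell from 11.3 ± 2.07 to 4.12 ± 0.98 CPM (log2 fold change -1.45, edgeR adjusted p = 1.67e-05). Of the 3 tested death receptors (Fas, Tnfrsf1a and Tnfrsf10b), Tnfrsf1a alone rose. Tnfrsf12a, the receptor for TWEAK, fell with a log2 fold change of -0.83 and Tnfrsf14, the herpesvirus entry mediator, with -0.95.

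The calls of receptors with few counts were unstable. Tnfrsf18, at 0.720 CPM in shNC and 0.346 in shTrem2, passed as lower (log2 fold change -1.05, edgeR adjusted p = 0.0438) but lost the call when any library was left out (adjusted p from 0.0553 to 0.128), in DESeq2 (0.207) and with no filter beyond 1 count (0.148). Tnfrsf17 passed as higher (log2 fold change 1.31, edgeR adjusted p = 0.0144) with means of 0.400 CPM for shNC and 1.00 CPM for shTrem2, and lost the call in DESeq2 (0.0672) and without shNC replicate 1, shNC replicate 2 or shTrem2 replicate 1 (0.0526 to 0.0742). The other gene that passed as higher was Tnfrsf22, a receptor without a death domain, from 17.4 ± 0.885 to 22.9 ± 2.41 CPM (SD, n = 3), named after its value was seen.

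**Figure D4:**
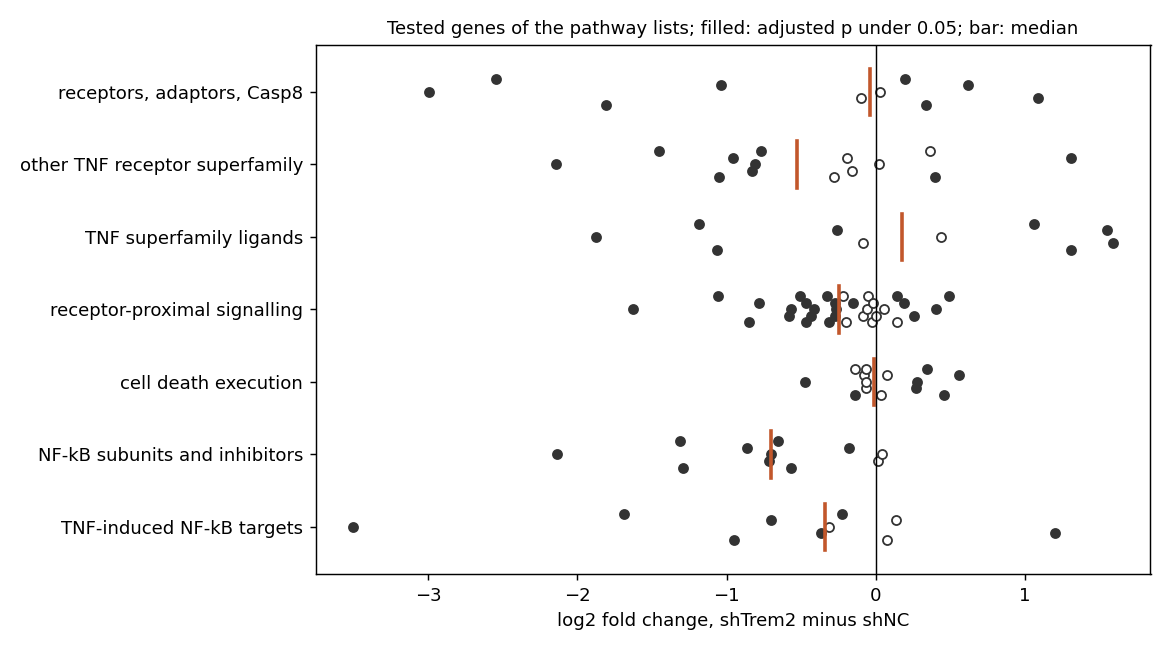
Each point is a tested gene of the list named on the left, placed by its log2 fold change of shTrem2 minus shNC, filled where the adjusted p is under 0.05, and the bar is the list's median. The medians are -0.53 for other receptors, 0.17 for ligands, -0.24 for receptor-proximal signalling, -0.01 for cell death execution, -0.70 for NF-kB subunits and inhibitors and -0.34 for TNF-induced targets.

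Of 32 proteins that act just below the receptors, all were tested, and 17 passed as lower and 5 as higher, against 28.6% and 28.8% of all tested genes. Their log2 fold changes had a median of -0.24. Of the 32, 4 reached the DEG criterion, all lower. Among all tested genes, 12.4% were lower DEGs and 9.46% higher, so the share of lower DEGs here was near that of all genes. Cflar, the FLIP protein that restrains Casp8, was at 361, 335 and 296 CPM in shNC and at 164, 159 and 153 CPM in shTrem2. It fell 2.08-fold (log2 fold change -1.06, SE 0.06, adjusted p = 1.58e-08), while Casp8 and Fadd, its partners at the receptor, were higher. Birc3, an inhibitor of apoptosis protein that acts with Traf1, fell from 142 ± 5.37 to 78.5 ± 2.57 CPM (SD, n = 3, log2 fold change -0.85, edgeR adjusted p = 1.34e-08). Traf4 (log2 fold change -1.63) and Tnip1, a partner of the ubiquitin editor Tnfaip3 (-0.78), were the other named falls. The 5 that passed as higher, named after their values were seen, were Daxx (0.49), Ripk1, the kinase at Tnfrsf1a (0.40), Traf6 (0.26), Cyld (0.19) and Tab2 (0.14).

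Below that level, the 14 genes of cell death execution showed no DEG, with 5 passing as higher, 2 as lower and a median of -0.01 on the log2 scale. In all, 7 of the 14 passed. Among all tested genes, 57.4% passed, 9.46% were higher DEGs and 12.4% were lower DEGs. Among those that passed, named after their values were seen, were Mlkl (0.56), Apaf1 (0.34), Dffa (0.28) and Parp1 (0.27) as higher and Dffb (-0.47) and Bid (-0.14) as lower. Their changes were smaller than those of Fas, Cd40 and Fadd.

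Of 11 NF-kB subunits and inhibitors, 9 passed as lower and 0 as higher, against 28.6% and 28.8% of all tested genes, and the median was -0.70 on the log2 scale. The 7 DEGs among them were all lower, while 12.4% of all tested genes were lower DEGs. Bcl3, a nuclear IkB protein, fell from 10.5 ± 0.98 to 2.39 ± 0.21 CPM (SD, n = 3, log2 fold change -2.13, edgeR adjusted p = 9.96e-08). Further falls were seen for Nfkbiz (-1.31), the subunit Rel (-1.29), the inhibitor Nfkbia (-0.87) and the subunits of the alternative pathway Relb (-0.72) and Nfkb2 (-0.70). Rela, the main activating subunit, had 52.7 ± 1.86 CPM for shNC against 53.3 ± 1.86 for shTrem2 (SD, n = 3) and did not pass the test (edgeR adjusted p = 0.83), nor did Nfkbid (log2 fold change 0.04, edgeR adjusted p = 0.676).

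Of 15 TNF-induced NF-kB target genes, 10 were tested, 6 passed as lower and 1 as higher (28.6% and 28.8% of all tested genes), and the median was -0.34 on the log2 scale. Ptgs2, the inducible cyclooxygenase, fell from 252 ± 64.8 to 22.2 ± 0.87 CPM (SD, n = 3, log2 fold change -3.50, edgeR adjusted p = 1.12e-09). Nos2 (log2 fold change -1.69), Ier3 (-0.95) and the adhesion molecule Icam1 (-0.70) were also lower. The gene that passed as higher was the chemokine Cxcl10, which rose from 1.54 ± 0.33 to 3.53 ± 1.23 CPM (SD, n = 3, log2 fold change 1.20, edgeR adjusted p = 0.00309). Ccl2, named after its values were seen, was not tested in edgeR. It had 0, 1 and 2 counts in shNC and 9, 14 and 17 in shTrem2.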

How the data were processed

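Poly(A) RNA from 3 shNC and 3 shTrem2 samples was sequenced with a stranded kit. Per the submitters' processing notes, the authors used fastp, HISAT2, StringTie and the build GRCm39. The paper's methods state an orientation-aware alignment and quantification from the StringTie assemblies. The counting tool and its strand setting are not given in the sources used here. The authors deposited estimated counts per transcript row, not scaled for depth or length, and 79.3% of nonzero values were not whole. The authors also deposited FPKM per gene, which followed effective length, and group means, which were not used.

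Rows of 1 symbol were added up and rounded to whole counts. Rows without a symbol, 0.908% to 1.12% of counts, were left out. The depth allows a count of 0 to hide up to 3 counts, for counting error only. Groups follow the labels. Differential expression was tested with edgeR 4.0.16 in R 4.3.3 (TMM, filterByExpr by group, glmQLFit and glmQLFTest, no covariates) with Benjamini-Hochberg adjustment over 13528 genes. The script was tested on simulated data. Alternatives were DESeq2 1.42.0, limma 3.58.1 (voom, and limma-trend on log2(FPKM + 1) or log2(FPKM + 0.1)), RLE, upper quartile or library size scaling, other filters and thresholds, a block for the replicate number, each library left out, an offset for effective length and the largest transcript row only.

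The 10 genes and the gene lists were chosen with earlier results of these data known. Besides these genes and Trem2, the text names up to 6 DEGs per pathway list with the largest changes, the ligands of the receptors, and the 3 nearest profiles of each DEG, except for items that are not reported here. The genes said in the text to be named after their values were seen are named beside that rule. So are Rela, Nfkbid, the marker genes and the genes that overlap or lie next to one of the 10. Gene coordinates are from GENCODE M21 (GRCm38) and promoters from RefSeq (GRCm38.p6), not the build of the files.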

Additional observations from a re-analysis of the deposited data

How the results depend on the processing

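Of the fold changes of the 10 genes and Trem2, 188 alternative values kept their direction and their side of the threshold, 6 changed sign and 4 lost the call. No fall among Fas, Cd40, Tnfrsf9 and Traf1 and no rise of Tnfrsf1a, Ltbr and Fadd lost its call. Tnfrsf1b, which did not pass in any setting, changed sign to -0.0087 with library size only, -0.0527 on log2(FPKM + 1), -0.0571 on log2(FPKM + 0.1) and -0.0265 with the effective-length offset, and ranged from -0.0408 to 0.0892 with each library left out (-0.0408 without shNC replicate 3, -0.0337 without shTrem2 replicate 2). Casp8 lost its call at 0.0981 on log2(FPKM + 1), 0.1012 on log2(FPKM + 0.1), 0.1282 with the offset and 0.1298 with the largest transcript row only. The cause was not tested in either case. Among the 10 genes, the number of DEGs that were higher was 1 in place of 2 with library size only, in both FPKM fits and at a fold change over 2. With DESeq2, other receptors passing as higher were 1 in place of 2, cell death genes passing as lower 1 in place of 2 and TNF-induced targets passing as higher 2 in place of 1. Trem2 ranged from -2.14 to -0.77. The median over all tested genes moved by at most 0.0343 between settings.

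The labels do not say whether the replicate numbers pair the samples. Deviations of same-numbered libraries correlated at -0.0111, 0.00447 and 0.00589, which does not settle it, so no pairing was used in the main test. With the replicate block, Fas stood at -2.99 and Fadd at 1.09, and 4 of the 10 genes passed in each direction, as without it. Of the named genes, Tnfrsf18 alone lost its call under the block (adjusted p = 0.0811 in edgeR). The search for TRAF-binding motifs in the receptor proteins was not run, as protein sequences were not used here. Depth limits Fasl and Cd40lg, where a change below 3 counts was not detectable.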

Other observations

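The domain annotation deposited with the counts names further genes that share a domain with these receptors and adaptors. The death effector domain occurs in 6 genes, all tested. At an edgeR adjusted p under 0.05, Fadd and Casp8 were higher, and Cflar, Dedd2 (log2 fold change -0.56) and Pea15a (-0.30) were lower. Dedd (-0.02) did not pass. That is 83.3% passing, against 57.4% of all tested genes, and the call of Casp8 was lost in some settings, as given above. Of 31 genes with a death domain, 19 were tested, and 6 passed as higher and 7 as lower, against 28.8% and 28.6% of all tested genes. Outside the TNF receptor system, these included Irak2, a kinase of Toll-like receptor signalling, at a log2 fold change of -1.75 (edgeR adjusted p = 2.90e-10), Irak3 at -0.41, Irak1 at 0.22 and the adaptor Myd88 at 0.17. These genes were named after their values were seen.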
